A study of Mus musculus with 3 samples.

Results

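The semaphorin, plexin, neuropilin, slit, robo and netrin receptor genes of the mouse were described by the CUT&Tag peaks of the chromatin remodeler CHD7 and of the transcription factor SOX2 in the otocyst, the epithelial vesicle that forms the inner ear. CUT&Tag uses an antibody to bring the Tn5 transposase to DNA near a protein. The 40 genes, of 21887 protein-coding genes, were taken by name from these families. They were 23 ligands (20 semaphorins and 3 slits) and 17 receptors (9 plexins, 2 neuropilins, 2 robos and 4 netrin receptors). The families are not complete, since Robo3, Robo4 and Unc5d were counted with other genes of these pathways, described below. The otocysts were wild-type and dissected at E10.5. Cells of 34 pooled otocysts were split over 3 libraries, made with an antibody against CHD7, with an antibody against SOX2 and without a primary antibody. The last is not analysed here, so no background in a control library stands beside the values. With 1 library per antibody from 1 pool of embryos, no value below has a replicate check, and no comparison has a test. The read depth of the libraries is unknown.

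Semaphorins are secreted or membrane-bound proteins that repel or attract growing axons and migrating cells. They act through plexins, and most secreted class 3 semaphorins also need a neuropilin as coreceptor. Slits are secreted repellents read by robo receptors, and Dcc and the Unc5 proteins are receptors of netrins, with which Dcc mostly mediates attraction and Unc5 repulsion. In the ear these families are known for steering the axons and cell bodies of the sensory ganglion neurons and for shaping epithelium.

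The CHD7 list held 33035 peaks and the SOX2 list 155548. Each peak carries a total signal, the authors' coverage summed over the peak. In the CHD7 list it started at 432.7 with a median of 651.3, and in the SOX2 list at 733.1 with a median of 997.0. These scales differ between lists, so signal is compared only within a list. A gene counted as having an end peak when a peak lay within 1 kb of either outer border of the gene. Positions are those of mm10, counted from 1. Whether a peak inside a gene is exonic or intronic was not determined here. Of 10 otic epithelium markers 4 had a CHD7 and 7 a SOX2 end peak, with summed CHD7 signals of 0 to 1840 and SOX2 signals of 0 to 4076, and Pax2, Pax8 and Oc90 had none. Markers of periotic mesenchyme had both peaks at 6 of 6 genes (CHD7 683.1 to 1494, SOX2 1290 to 5806). CHD7 and SOX2 were at 2 and 2 of 4 neural crest and glia markers (Ets1 and Foxd3 at 0), at 2 and 4 of 5 neuroblast markers (Eya2 at 0), at 0 and 4 of 5 endothelial markers (Kdr at 0) and at 1 and 1 of 5 blood markers (Klf1 alone above 0). Of all protein-coding genes 30.8% had a CHD7 and 59.7% a SOX2 end peak, and several of these marker counts are near those shares. A peak list does not tell which of these cells a peak comes from, and the part of other cells in the results was not tested.

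The start sites that carried peaks of both lists are shown first, because their sequence is listed and both lists have a peak on it. RefSeq promoters of GRCm38.p6, the build also called mm10, were listed for 33 of the 40 genes. The 250 bases before the start site are printed 5′ to 3′ for the 6 genes with the strongest peaks of both lists over these bases, by the worse of the ranks in the 2 lists. At the sixth place Robo1 ranked level with Sema6c. Capitals mark the CG pairs.

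Unc5c (chr3:141465314-141465563, plus strand): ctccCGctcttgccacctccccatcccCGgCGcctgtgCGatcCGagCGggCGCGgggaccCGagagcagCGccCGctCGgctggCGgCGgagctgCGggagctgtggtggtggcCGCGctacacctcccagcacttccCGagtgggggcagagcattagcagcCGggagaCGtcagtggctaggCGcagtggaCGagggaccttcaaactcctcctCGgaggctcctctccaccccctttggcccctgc
Sema4c (chr1:36557558-36557807, minus strand): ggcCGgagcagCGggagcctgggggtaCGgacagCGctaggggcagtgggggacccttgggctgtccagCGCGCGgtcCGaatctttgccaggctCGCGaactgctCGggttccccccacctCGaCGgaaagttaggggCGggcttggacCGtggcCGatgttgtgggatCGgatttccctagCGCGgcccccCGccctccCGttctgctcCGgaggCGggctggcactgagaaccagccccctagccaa
Robo2 (chr16:74411826-74412075, minus strand): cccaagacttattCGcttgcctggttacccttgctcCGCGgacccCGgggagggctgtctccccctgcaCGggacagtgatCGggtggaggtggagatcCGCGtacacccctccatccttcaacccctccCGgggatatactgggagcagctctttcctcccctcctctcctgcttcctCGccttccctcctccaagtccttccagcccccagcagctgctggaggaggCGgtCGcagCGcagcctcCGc
Sema4b (chr7:80186620-80186869, plus strand): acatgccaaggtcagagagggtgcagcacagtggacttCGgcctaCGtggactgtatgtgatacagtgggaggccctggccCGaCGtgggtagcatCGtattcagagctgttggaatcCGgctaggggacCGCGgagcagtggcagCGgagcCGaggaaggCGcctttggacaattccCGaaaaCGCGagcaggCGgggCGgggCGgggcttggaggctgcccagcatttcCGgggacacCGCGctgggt
Sema5b (chr16:35541112-35541361, plus strand): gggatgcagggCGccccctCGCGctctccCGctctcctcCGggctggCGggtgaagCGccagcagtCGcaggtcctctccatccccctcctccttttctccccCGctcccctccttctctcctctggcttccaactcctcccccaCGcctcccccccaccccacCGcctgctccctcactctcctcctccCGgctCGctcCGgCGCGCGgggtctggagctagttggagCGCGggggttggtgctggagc
Sema6c (chr3:95160170-95160419, plus strand): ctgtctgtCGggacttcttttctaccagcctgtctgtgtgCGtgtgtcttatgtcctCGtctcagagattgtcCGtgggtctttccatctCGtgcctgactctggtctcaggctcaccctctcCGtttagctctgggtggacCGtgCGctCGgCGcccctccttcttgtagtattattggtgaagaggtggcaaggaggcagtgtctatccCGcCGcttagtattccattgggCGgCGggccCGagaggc

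The 6 sequences held between 14 and 23 CG pairs each, and their GC content ran from 57.6% in Sema6c to 72.0% in Sema5b. The SOX words ACAAAG and ACAATG, searched on both strands, were in 0 of the 6. Over the full windows of 250 bases before to 50 after the start site, 11 windows of 10 member genes overlapped peaks of both lists, and 1 of these 11 held a SOX word (9.09%). In windows of all genes with peaks of both lists the share was 16.7%. Of the 23 member windows with no peak 8 held a SOX word (34.8%), against 31.7% of such windows over all genes. The Sema3a window, which had no peak, held 3 of these words. CG pairs were denser in windows with peaks, in the members as over all genes. The observed over expected ratio of CG pairs had a median of 0.73 in member windows with both peaks and 0.37 in those with neither, and over all genes these medians were 0.81 and 0.28. The 2 words do not overlap each other, and a match or its absence says nothing of binding.

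SOX2 peaks lay at the ends of most of the 40 genes and CHD7 peaks at fewer. A CHD7 end peak was present at 16 genes (40.0%), where 30.8% of all protein-coding genes and 34.8% of genes of similar length had one. A SOX2 end peak was present at 28 genes (70.0%), against 59.7% of all genes and 67.7% of genes of similar length. Both were present at 15 genes (37.5%), against 28.3% and 31.9%. The genes of similar length were the 500 other protein-coding genes nearest to each member in length, counted once per member. They matter here because the members are long, with a median of 112 kb against 17.2 kb over all genes. The shares of the 40 genes as a whole were thus close to those of genes of similar length.

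With the full lists and outer borders, ligand genes had end peaks more often than receptor genes. CHD7 was at 11 of 23 ligand genes (47.8%, with 34.7% in genes of similar length) and at 5 of 17 receptor genes (29.4%, with 35.0%). SOX2 was at 17 of 23 (73.9%, with 67.5%) and at 11 of 17 (64.7%, with 68.0%). For CHD7 the ligands stood above genes of similar length. The SOX2 share of ligands and both receptor shares lay near those of such genes. Robo1 and Robo2 count here as receptors without peaks, although both proteins were at a listed start site inside each, as described below. For SOX2 the order turned at listed start sites, with 13 of 19 ligand genes (68.4%) and 10 of 14 receptor genes (71.4%), and with the 10000 strongest peaks, at 21.7% and 23.5%. The difference between the roles comes to a few genes and was not tested.

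**Figure D1:**
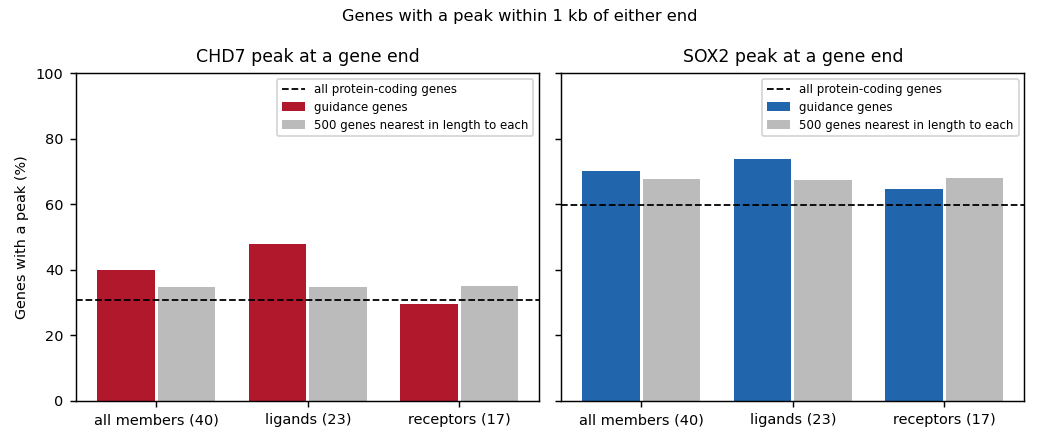
Share of genes in percent with a peak within 1 kb of either end, for CHD7 (left) and SOX2 (right). Coloured bars are the 40 guidance genes, the 23 ligands and the 17 receptors, grey bars the genes nearest in length and the dashed line all protein-coding genes; for CHD7 the ligands reached 47.8% and the receptors 29.4%.

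Among the ligands, 10 of the 11 with a CHD7 end peak were semaphorins. CHD7 was at 10 of 20 semaphorin genes and SOX2 at 15, and the 10 semaphorin genes with CHD7 also had SOX2. This is common, since 6192 of the 6742 protein-coding genes with a CHD7 end peak also had a SOX2 end peak. Class 3, the secreted semaphorins, had CHD7 at 3 of 7 and SOX2 at 5 of 7. Class 4, a membrane-bound class that acts mainly on B plexins, had CHD7 at 3 of 6 and SOX2 at 4 of 6. Both class 5 genes, which encode membrane proteins with thrombospondin repeats, had both. Class 6, membrane ligands of A plexins, had CHD7 at 2 of 4 and SOX2 at 4 of 4. Sema7a, the semaphorin held in the membrane by a lipid anchor, had neither. Of the 3 slit genes Slit2 had CHD7 alone and Slit1 and Slit3 had SOX2 alone.

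Receptor genes with CHD7 were Plxna1, Plxna2, Plxnb2, Dcc and Unc5c, and each of the 5 also had SOX2. So did 6192 of the 6742 protein-coding genes with CHD7 at an end. A plexins, the signalling partners of neuropilins, had CHD7 at 2 of 4 and SOX2 at 3 of 4. B plexins, receptors of class 4 semaphorins, had CHD7 at 1 of 3 and SOX2 at 3 of 3. Plxnd1, the receptor of Sema3e in blood vessels, had SOX2 alone, with 3 peaks at its upstream end that summed to 6861. Plxnc1, the receptor of Sema7a, had neither, as its ligand gene did. The neuropilin Nrp1 had SOX2 alone and Nrp2 had neither. Netrin receptors had CHD7 at 2 of 4 and SOX2 at 3 of 4, and Unc5a had neither.

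**Figure D2:**
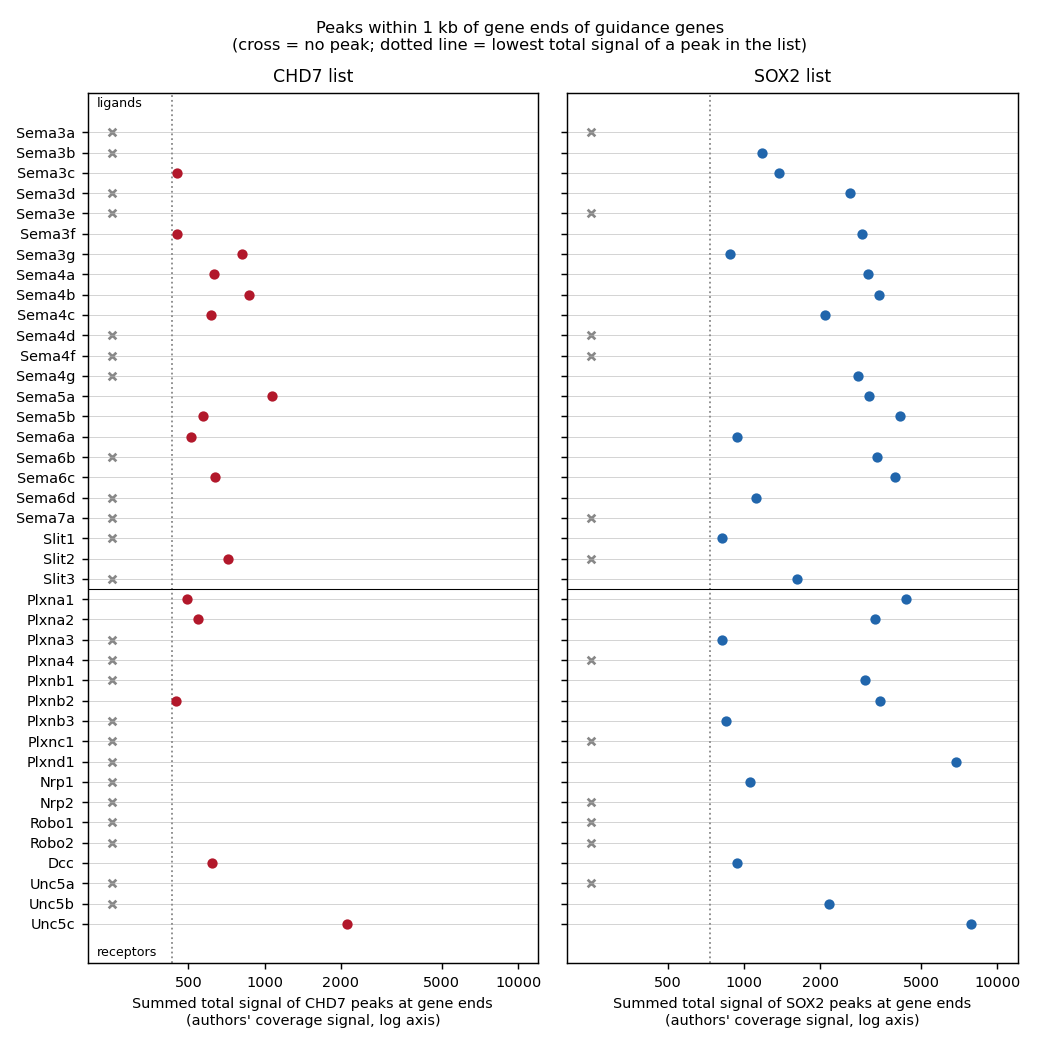
Summed total signal of the peaks at gene ends for each of the 40 genes, CHD7 on the left and SOX2 on the right, on log axes, with ligands above the line and receptors below it. Crosses are genes without an end peak and dotted lines the lowest total signal of a peak in the list (432.7 and 733.1); Unc5c stands highest in both lists, with 2118 and 7858.

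Unc5c, a netrin receptor gene on chromosome 3 (141465564 to 141834924, plus strand), carried the strongest end peaks of the 40 genes in both lists. Its CHD7 peak at 141464651 to 141466650 had a total signal of 2118, above 94.7% of the CHD7 list. Its SOX2 peak at 141464501 to 141467750 had 7858, above 99.4% of the SOX2 list. Both peaks span the start site whose upstream bases are printed above, and they overlap.

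The semaphorins Sema6c, Sema4b and Sema5a followed, each with overlapping peaks at the start of the gene. Sema4b had a CHD7 peak of 865.3 and a SOX2 peak of 3401 at the upstream border. Sema5a had a CHD7 peak of 1070, above 80.7% of its list, and 2 SOX2 peaks of 1232 and 1877. Sema6c had a CHD7 peak of 637.6 and 3 SOX2 end peaks that summed to 3929, of which 1, with 938.3, lay at the downstream border. Of these 3 genes Sema5a had the highest CHD7 and Sema6c the highest SOX2 sum.

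Sema4a, Sema5b, Plxna2 and Sema4c complete the 8 genes with the strongest peaks of both lists. At Sema5b a CHD7 peak of 569.3 overlapped a SOX2 peak of 2639 at the upstream border, and a second SOX2 peak of 1495 lay at the downstream border. At Plxna2, the receptor of Sema6a, a CHD7 peak of 546.5 overlapped a SOX2 peak of 3284 at the upstream border. At Sema4c a CHD7 peak of 614.8 overlapped a SOX2 peak of 2082 at the downstream border, and both also lie at an end of the neighbouring gene Ankrd39. At Sema4a the peaks were at the downstream border, where CHD7 with 628.5 overlapped SOX2 with 1466, and none of its 4 listed start sites had a peak of either list within 1 kb.

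Where a gene counted as having both, the peaks did not always meet. At Sema3g the CHD7 peak (810.7) lay inside the gene and the SOX2 peak (879.7) before it, with no base in common. At Sema6a the CHD7 peak (510.1) lay at the higher and the SOX2 peak (938.3) at the lower border. The remaining genes with both were Sema3c, Sema3f, Plxna1, Dcc and Plxnb2, with CHD7 sums of 446.3 to 619.4 and SOX2 sums of 938.3 to 4340. The overlapping peaks of Plxnb2 also lie at an end of Dennd6b and those of Plxna1 at an end of Gm40415. SOX2 alone was at 13 of the 40 genes, against 6877 of all 21887 protein-coding genes. The 13 genes with SOX2 alone ran from 821 in Slit1 and Plxna3 to 6861 in Plxnd1, with Sema6b at 3343, Plxnb1 at 2991, Sema3d at 2610 and the netrin receptor Unc5b at 2170.

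CHD7 end peaks of the 40 genes were mostly weak within their list. Of the 16 genes with CHD7, 5 (31.2%) had an end peak in the stronger 50% of the CHD7 list: Sema3g, Sema4b, Sema5a, Slit2 and Unc5c. Over all genes with a CHD7 end peak the share was 62.5%, and a CHD7 peak of the stronger 50% lay at an end of 5 of the 40 genes against 19.2% of all genes. For SOX2, 21 of 28 genes (75%) had an end peak in the stronger 50%, against 80.0% over all genes with a SOX2 end peak. That is 21 of the 40 genes, against 47.8% of all genes. The CHD7 share of the 40 genes was thus above that of all genes with the full list and below it with the stronger 50%.

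**Figure D3:**
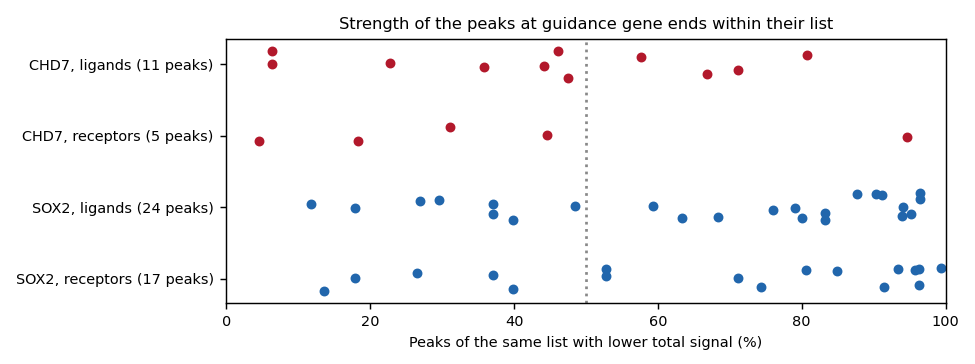
Strength of each peak at an end of a guidance gene, as the percentage of peaks of the same list with a lower total signal, by list and role; vertical scatter within a row has no meaning. Of the 16 CHD7 peaks 5 lie to the right of the dotted line at 50%.

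Neither protein was at an end of 11 of the 40 genes, against 8268 of all 21887 protein-coding genes. A lack of end peaks is thus common, and its share in genes of similar length was not taken. The 11 genes were Sema3a, Sema3e, Sema4d, Sema4f, Sema7a, Plxna4, Plxnc1, Nrp2, Robo1, Robo2 and Unc5a. For 10 of them RefSeq lists a start site, which can lie far inside the outer borders of the gene. Sema3a, the repellent read by Nrp1 with A plexins, has its listed start site 2317 bases from the nearest SOX2 peak and 140367 bases from the nearest CHD7 peak. For Sema3e these distances were 30576 and 110326 bases. Sema4d, a ligand of Plxnb1, had a SOX2 peak 1955 bases from a start site and no CHD7 peak within 74946 bases. Unc5a had SOX2 at 2090 bases, Nrp2 had SOX2 at 3034 and CHD7 at 2284 bases, and Plxnc1 had SOX2 at 3756 and CHD7 at 38256 bases.

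Taken at listed start sites in place of outer borders, both proteins appeared at Robo1, Robo2 and Slit2. Of the 33 genes with a listed start site 12 had a CHD7 peak within 1 kb of one, where 31.0% of all genes with a listed start site did. SOX2 was at 23, against 54.9%. No share in genes of similar length was taken at start sites, so length is not accounted for here. The 12 genes with CHD7 at a start site also had SOX2 at a start site. At gene ends over all protein-coding genes, 6192 of the 6742 with CHD7 also had SOX2. Robo1 has its start site 635.6 kb from its upstream and 384 kb from its downstream border. There 2 CHD7 peaks of 551.1 and 460.0 overlapped 1 SOX2 peak of 2815. Robo2 has 3 listed start sites. At one of them, 1036 kb from the upstream and 520 kb from the downstream border, a CHD7 peak of 1157 overlapped a SOX2 peak of 3108, at a second a SOX2 peak of 1173 lay alone, and the outermost had no peak within 1 kb. At Slit2 the start site lies 1.86 kb inside the upstream border, and a CHD7 peak of 446.3 and a SOX2 peak of 3401 overlapped there. The CHD7 peak of Slit2 at the outer border (715.0, 250 bases wide) had no SOX2 peak on it.

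Sema4c, a ligand of Plxnb2, also had its strongest peaks at a start site inside the border. A CHD7 peak at 36557251 to 36558400 on chromosome 1 with 1426 overlapped a SOX2 peak with 4105, while its end peaks had 614.8 and 2082. Plxnb2 and Sema4a had CHD7 at an end and not at a listed start site. The 7 genes without a listed start site were Sema3b, Sema3f, Sema6a, Slit1, Plxna1, Plxna4 and Dcc. Counting start sites thus moved the robo genes and Slit2 into the group with both and left the number of genes with CHD7 at 12 of 33 by either count.

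**Figure D4:**
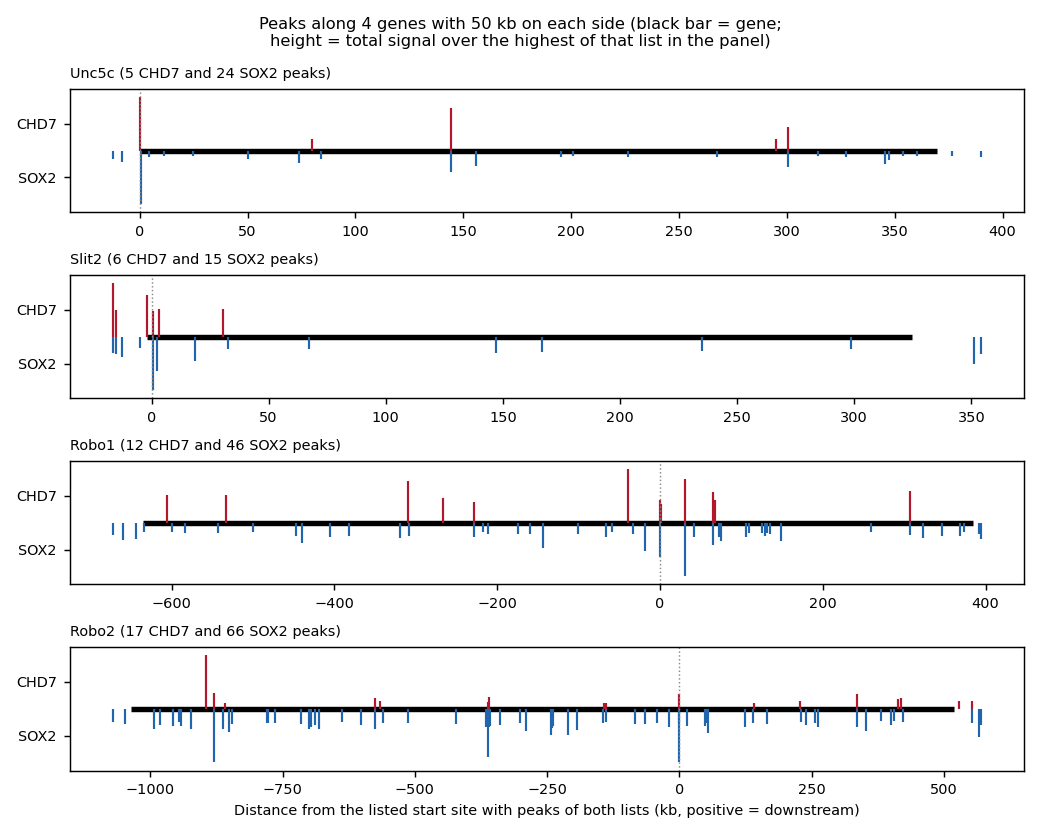
Peaks along Unc5c, Slit2, Robo1 and Robo2 with 50 kb on each side, by distance in kb from the listed start site with peaks of both lists. Lines upward are CHD7 and lines downward SOX2, with the height as total signal over the highest of that list in the panel; the black bar is the gene, and the robo start sites lie far inside it.

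Within the genes and 50 kb on each side there were 161 distinct CHD7 peaks and 886 distinct SOX2 peaks over 13.1 Mb. That is 1.23 CHD7 peaks per 100 kb, against 1.37 over the loci of all protein-coding genes, and 6.75 SOX2 peaks per 100 kb, against 6.66. Ligand loci held 1.45 CHD7 and 7.77 SOX2 peaks per 100 kb. Receptor loci held 1.04 and 5.89, below the ligand loci in both lists. Per gene, the median locus held 4 CHD7 and 17 SOX2 peaks in ligands and 3 and 22 in receptors, so for SOX2 the order turned. Length was not matched in these values. The receptor loci include the longest genes. Robo2, a gene of 1555 kb, had 1.03 CHD7 peaks per 100 kb of locus, and Sema3b, of 11.57 kb, had 7.17.

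Of the 161 CHD7 peaks 107 overlapped a SOX2 peak by at least 1 base, or 66.5% (exact 95% binomial interval 58.6% to 73.7%), against 67.9% over the loci of all genes. Of the 886 SOX2 peaks 111 overlapped a CHD7 peak, or 12.5% (10.4% to 14.9%), against 14.8%. CHD7 peaks of ligand loci were shared in 71.3% (60.6% to 80.5%) and those of receptor loci in 60.8% (48.8% to 72.0%), with intervals that overlap. Intervals cover counting error over peaks only. They treat each peak as separate, which neighbouring peaks of a locus need not be, and they hold no variation between libraries.

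Most peaks of these loci lay away from gene ends. Of the CHD7 peaks 16 (9.94%) were at a member end, 88 (54.7%) inside a gene and 57 (35.4%) in the flanks, where the loci of all genes gave 26.1%, 42.1% and 31.8%. Of the SOX2 peaks 41 (4.63%), 530 (59.8%) and 315 (35.6%) were in these places, against 13.6%, 53.0% and 33.4%. The classes are not alike, since over all loci an end of any gene counted and in member loci an end of a member alone. A lower end share of the members therefore comes in part from the definition. Length was also not matched in these shares. CHD7 peaks at ends overlapped SOX2 in 81.2% (54.4% to 96.0%), those inside genes in 58.0% (47.0% to 68.4%) and those in flanks in 75.4% (62.2% to 85.9%). Over the loci of all genes these shares were 85.7%, 61.7% and 61.7%. The flank shares are not alike either, because member flanks include peaks at ends of other genes and the flanks of all loci do not. In the flanks 19 of the 57 CHD7 peaks (33.3%) and 63 of the 315 SOX2 peaks (20%) were at an end of another gene.

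Strong CHD7 peaks were few in these loci, and several had no SOX2 peak. The strongest 10% of the CHD7 list starts at 1530, and 7 of the 161 peaks (4.35%) reached it, against 10.6% over the loci of all genes. For SOX2 86 of 886 (9.71%) were in the strongest 10%, against 10.7%. Of the 7 strong CHD7 peaks 6 were in receptor loci. SOX2 was on 4 of the 7, or 57.1% (exact 95% binomial interval 18.4% to 90.1%), against 90.7% of the 2462 such peaks over all loci. With 7 peaks that share leaves a wide interval.

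The strongest CHD7 peak lay inside Robo2 at 75305201 to 75307800 on chromosome 16, with a total signal of 4181, and no SOX2 peak overlapped it. The third, inside Plxna2 at 194749401 to 194750150 on chromosome 1 with 3165, had no SOX2 peak either. They lie 139493 and 129572 bases from the nearest listed start site. The second, with 3980, lay in the flank of Sema6b at ends of Hdgfl2 and Ubxn6, and so did the strongest SOX2 peak, with 9354. The fourth was that at the start of Unc5c. The fifth, inside Dcc with 2086, and the sixth, inside Unc5c with 1690 at 141609101 to 141610650, both overlapped SOX2.

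Among SOX2 peaks the start of Unc5c came second with 7858. The third, with 7067 at 107626251 to 107628500 on chromosome 9, lay in the flank of Sema3b and overlapped CHD7. The flank of Sema4g held 2 more, with 5806 at ends of Lzts2 and Pdzd7 and with 4780. The fifth, with 5425, lay inside Sema6a. Strongest by both lists were the pairs in the Sema6b flank, at the start of Unc5c, in the Sema4g flank (1439 and 4780), at the start site of Sema4c (1426 and 4105), inside Sema6d (1243 and 3607) and inside Dcc (1339 and 3372). Of these 6 places 2 are at listed start sites of members, at Unc5c and Sema4c. Dcc has no listed start site, so its place could not be judged in this way. The places in Sema4c, Sema6d and Dcc lie inside a member beyond 1 kb of its borders.

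**Figure D5:**
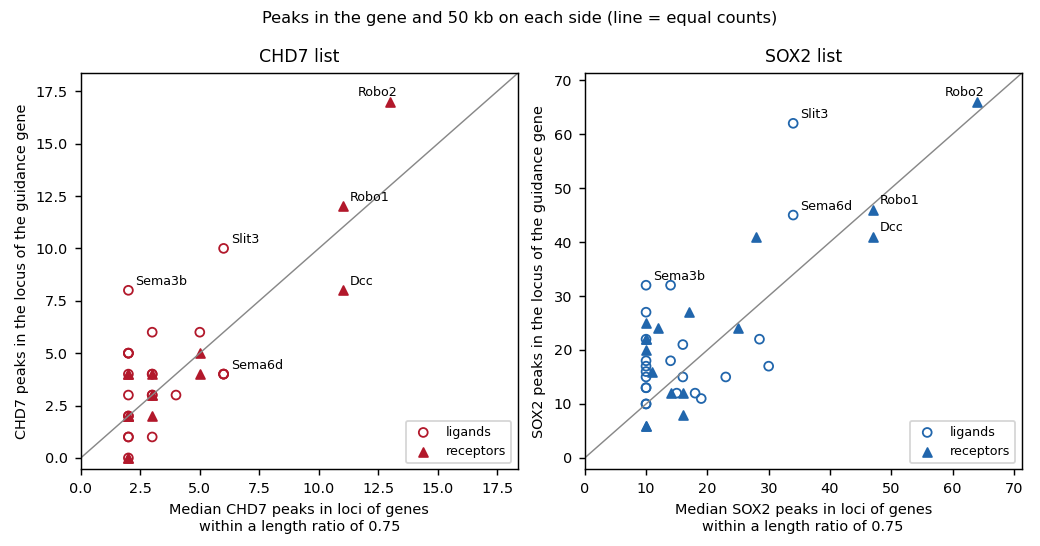
Peaks in the locus of each guidance gene against the median over genes within a length ratio of 0.75 (the shorter over the longer gene), for CHD7 (left) and SOX2 (right), with ligands as open circles and receptors as filled triangles. Points above the line have more peaks than the median; in SOX2 Slit3 lies well above it (62 against 34) and Robo1 and Robo2 lie close to it (46 against 47 and 66 against 64).

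The loci of Robo2, Robo1 and Slit3 held the most CHD7 peaks and the most SOX2 peaks. Robo2 held 17 CHD7 and 66 SOX2 peaks, Robo1 12 and 46, and Slit3 10 and 62. Genes whose length was within a ratio of 0.75 of that of Robo2 (the shorter over the longer) numbered 29 and had medians of 13 and 64, so Robo2 had more CHD7 peaks than 20 of them and more SOX2 peaks than 15. For Robo1 the 83 such genes had medians of 11 and 47. The robo genes were thus near the middle of genes as long as they are.

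Slit3, a ligand of both robos, stood higher. It had more SOX2 peaks than 172 of 181 genes of its length (median 34) and more CHD7 peaks than 140 (median 6). Its CHD7 peaks inside the gene had totals of 464.5 to 674.0, so they lay near or below the median of the list. Dcc, at 1098 kb, had 8 CHD7 and 41 SOX2 peaks against medians of 11 and 47, more than 17 and 24 of 77 genes. Robo1, Robo2 and Dcc together held 33 of the 50 CHD7 peaks inside receptor genes, and 18 of the 33 overlapped SOX2.

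Against the genes within that ratio of their length, 23 members had more SOX2 peaks in the locus than the median and 15 fewer. In 10 the locus had more than in 90% of those genes: Sema3b, Sema3f, Sema5b, Sema6b, Slit3, Plxna1, Plxnb1, Plxnb2, Plxnd1 and Unc5b. The number of neighbouring genes was not matched. Plxnb1 had 13 of 22, Plxnb2 11 of 20 and Plxnd1 12 of 22 SOX2 peaks in the flanks, with 4, 6 and 2 at ends of other genes. Plxna1 had 10 of 25 and Unc5b 8 of 24 in the flanks, with 2 each at such ends. For CHD7 16 had more and 13 fewer, and Sema3b alone had more than 90%. Against the 500 genes nearest in length 25 had more and 13 fewer SOX2 peaks, and 17 had more and 12 fewer CHD7 peaks. Sema3b held 8 CHD7 and 32 SOX2 peaks where the median was 2 and 10, and its 8 CHD7 peaks were all in the flanks. Of these 8 peaks 6 lay at ends of other genes, such as Gnai2, Hyal2 and Rassf1. Sema3b and Sema3f are neighbours, and peaks between them count in both loci.

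The low end held Sema4f, Plxna3 and Unc5a, with 0 CHD7 peaks in the locus against a median of 2 in genes of their length. They had 10, 6 and 16 SOX2 peaks. Of the class 3 semaphorins Sema3a, Sema3d and Sema3e, which lie on chromosome 5, had 17, 12 and 11 SOX2 peaks against medians of 30, 18 and 19. The fourth on that chromosome, Sema3c, had 15 against 16. Sema3a had more SOX2 peaks than 24 of 274 genes of its length and Sema3e more than 70 of 654. Nrp1, the coreceptor of Sema3a, had 8 SOX2 peaks against 16, more than 100 of 1121 genes. SOX2 peaks of the ligand loci were thus spread unevenly. Sema3b, Sema3f, Sema5b, Sema6b and Slit3 were above 90% of genes of their length, and Sema3a and Sema3e at the lower end. Of the 32 SOX2 peaks of Sema3b 29 lay in the flanks, with 13 at ends of other genes. Sema6b had 17 of 22 in the flanks, with 6 at ends of other genes, and Sema3f had 5 of 27 inside the gene. At Sema5b 20 of 32 and at Slit3 54 of 62 lay inside the gene.

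The other genes of these pathways, 44 in number, had SOX2 at more and CHD7 at fewer ends than the 40 members. SOX2 was at 35 (79.5%) and CHD7 at 12 (27.3%), and the 12 also had SOX2, as 6192 of all 6742 genes with CHD7 did. Of all protein-coding genes 59.7% had SOX2 and 30.8% had CHD7 at an end. The 44 genes had a median length of 90.5 kb, and no share in genes of similar length was taken for them. Netrins and other ligands had CHD7 at 3 and SOX2 at 8 of 9, other receptors and coreceptors at 2 and 9 of 14, and cytoplasmic partners at 7 and 18 of 21. The strongest with both was Srgap2, a GTPase-activating protein that binds robos, with 4245 for CHD7 and 10820 for SOX2. Next came Dpysl5, of the collapsin response mediator family (1403 and 7096), the adaptor Nck1 (1512 and 3050), the semaphorin effectors Mical2 (819.8 and 2844) and Farp2 (1394 and 2463), and the netrin-binding ligand Draxin (719.6 and 3255). Fes, Flrt1, Flrt2 and Kdr were among those with neither. Of the 12 genes with CHD7 10 (83.3%) had an end peak in the stronger 50% of the list. Of the members with CHD7 5 of 16 did, and of all genes with a CHD7 end peak 62.5%. Whether these shares differ beyond chance was not tested.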

How the data were processed

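CUT&Tag libraries for CHD7 and SOX2 were deposited as 1 peak list each, on mm10. The authors' coverage signal in the deposited lists is a total and a maximum per peak, with its scaling, the calling settings and the role of the control library not given in the sources used here. Bowtie2, SEACR and deepTools are named, per the submitters' processing notes. The lists do not show read depth, so precision is that of the number of peaks.

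Gene borders came from a RefSeq table of GRCm38.p6, with strand and start sites from its promoter table. A peak was put at a gene end (1 kb), inside a gene or in a flank (50 kb), in that order, and each distinct peak was counted once. Shared peaks had at least 1 base in common. Intervals are exact binomial (Clopper-Pearson) at 95%. One marker gene of the lists is not reported here. Members and lists were chosen with earlier results of these data known.

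Named were up to 8 genes with both end peaks by the worse rank of summed signal, genes with neither, CHD7 alone, the most peaks per locus, and the 6 strongest peaks and pairs. For other pathway genes these were up to 6 with both and 4 with neither. Distances for Sema4d, Unc5a, Nrp2 and Plxnc1 and the class 3 genes on chromosome 5 were picked with their values in view. Alternatives changed the window, locus size, peak strength, overlap rule and genes of similar length; genes within a length ratio of 0.75 were added after seeing the data. Counting was tested on simulated peaks. The software was scipy 1.17.1, numpy 2.4.6, matplotlib 3.10.9 and pandas 2.3.3 under Python 3.11.15.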

Additional observations from a re-analysis of the deposited data

How the results depend on the processing

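Peak strength moved the counts most. With the stronger 50% of each list CHD7 was at an end of 5 genes (4 ligands and 1 receptor), both proteins at 3, and the loci held 68 CHD7 and 451 SOX2 peaks. With the 10000 strongest peaks of each list CHD7 was at 3 genes (2 ligands and 1 receptor), SOX2 at 9 (5 and 4), both at 2, and the other pathway genes had CHD7 at 4 and SOX2 at 11. The loci then held 43 and 48 peaks, with 37.2% of those of CHD7 shared. Gene bodies alone held 100 CHD7 and 560 SOX2 peaks. The shared part of CHD7 peaks was 54% when at least 50% of the peak had to be covered, 17.4% when the regions of maximum signal had to meet, and 38.5% with as many of the strongest SOX2 peaks as there are CHD7 peaks. With 200 genes of similar length CHD7 was at 33.8% and both at 30.9% of them, and over all genes the shares were 30.8%, 59.7% and 28.3% for CHD7, SOX2 and both. Gene ends of 500 bases gave 15, 24 and 14 of the 40 genes, and 2 kb gave 16, 32 and 16. No paired analysis was possible because each antibody has 1 library and no result comes from a test. No replicate could be left out for the same reason.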
